A study of Mus musculus with 4 samples.

Results

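Joined ATAC-seq peaks of mouse embryonic stem cells (ESC) were compared with those of mouse embryonic fibroblasts (MEF) on chromosomes 1 to 19. In each list, peaks whose start lay at most 10 bp after the end of the peak before were joined, and a joined peak was called shared if it overlapped a joined peak of the other list by at least 1 bp. The ESC list gave 72269 joined peaks, of which 44668 were in ESC only, and the MEF list gave 78840, of which 51462 were in MEF only. These are 96130 of the 302876 joined peaks of the 4 libraries in the series. ATAC-seq uses a transposase that inserts sequencing adapters into open chromatin. The other libraries came from induced pluripotent stem cells (iPSC) and from fibroblasts on a course to neural stem cells, which carry inducible Oct4, Sox2, Klf4 and Myc, were given doxycycline, 4OHT and a JAK1 inhibitor, were sorted as tdTomato-positive cells and are called the intermediate here. The ESC carried the strain label v6.5. The MEF and the iPSC were labelled A12 (Mbd3 flox/-), and the intermediate B6/129 with Rosa26-TdTomato and Col1a-OSKM. The intermediate is given as day 9 in its title, its source field names an earlier day, and its sort followed the activity of a Nanog-CreER reporter. The protocol text, shared by all labels and written for the sorted cells, gives 50000 cells per library, transposition for 30 minutes at 37 °C and 12 PCR cycles.

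Each group had 1 library, so there was no replicate check and no test was run. Strain and the Mbd3 allele differ between ESC and MEF in the same way as cell type, and they cannot be told apart. The intermediate is stated to be free of MEF feeder cells, and for ESC no label used here says whether feeders were present. Read depth behind the lists is unknown. The height of a peak is a whole number deposited with it, for which no scaling to library size is stated, so heights of different libraries are set side by side below as descriptions. A height of 0 means that no peak was listed within the window. Wilson 95% intervals in parentheses cover counting error over peaks or genes only.

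Nucleosome-free stretches mark promoters and enhancers, and the set of open enhancers is largely particular to a cell type. Embryonic stem cells keep their undifferentiated state through a network of factors that includes Oct4, Sox2, Nanog and Esrrb, and they have epithelial features such as E-cadherin junctions. Fibroblasts are mesenchymal cells that secrete collagens and other matrix proteins, and their enhancers are known to be rich in sites for AP-1 and TEAD factors. Many promoters rich in CpG dinucleotides are open in every cell type, while promoters poor in CpG are more often open in few.

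Promoters that lay within a joined peak of 1 list are printed first, because the text returns to them. Each runs from 250 bases before to 50 bases after the start site, 5′ to 3′ on the strand of the gene, from the RefSeq promoters of GRCm38.p6, the assembly also named mm10. Capitals mark matches to short motifs searched on both strands, which are AP-1 (TGACTCA), TEAD (GGAATG), RUNX (TGTGGTT), octamer (ATGCAAAT), KLF (GGGTGTGG), ESRRB (TCAAGGTCA), GRHL (AACCGGTT), E-box (CACGTG), NFY (CCAAT) and a CTCF core (CAGGGGGC). A match is a description of letters and not a measured binding site. Hits of different motifs shared letters in 99 of 16457 promoters, which is 0.602%. Zfp42 (chr8:43306960-43307259, minus strand) encodes the naive-state marker Rex1, Nanog (chr6:122707239-122707538, plus strand) a homeobox factor of the pluripotency network, and Sycp3 (chr10:88459337-88459636, plus strand) a protein of the meiotic chromosome axis. All 3 had a start-site peak in ESC only.
Zfp42: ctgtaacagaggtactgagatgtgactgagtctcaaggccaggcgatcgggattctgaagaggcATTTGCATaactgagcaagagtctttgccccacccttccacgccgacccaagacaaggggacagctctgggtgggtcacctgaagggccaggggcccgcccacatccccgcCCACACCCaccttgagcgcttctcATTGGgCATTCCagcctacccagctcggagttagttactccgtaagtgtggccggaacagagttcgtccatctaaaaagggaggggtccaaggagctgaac
Nanog: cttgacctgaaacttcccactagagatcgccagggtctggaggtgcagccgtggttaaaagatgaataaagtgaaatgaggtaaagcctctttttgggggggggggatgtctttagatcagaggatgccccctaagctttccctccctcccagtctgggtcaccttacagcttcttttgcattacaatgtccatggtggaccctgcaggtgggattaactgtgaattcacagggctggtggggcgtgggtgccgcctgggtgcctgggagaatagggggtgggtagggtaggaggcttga
Sycp3: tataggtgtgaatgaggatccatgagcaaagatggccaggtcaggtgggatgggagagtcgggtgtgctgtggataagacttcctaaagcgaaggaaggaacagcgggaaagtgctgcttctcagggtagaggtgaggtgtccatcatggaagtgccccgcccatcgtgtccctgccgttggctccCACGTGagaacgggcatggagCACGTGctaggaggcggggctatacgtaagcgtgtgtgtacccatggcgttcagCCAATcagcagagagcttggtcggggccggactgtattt
The Zfp42 promoter held an octamer match starting 186 bases before the start site, a KLF match at 75, an NFY match at 51 and a TEAD match at 45. The Sycp3 promoter held E-box matches at 64 and 43 bases before the start, and the Nanog window held no exact match to these 10 motifs. The search took exact letters only, so sites that vary from them are not marked. Col6a1 (chr10:76725995-76726294, minus strand) encodes a chain of collagen VI, Ankrd1 (chr19:36119795-36120094, minus strand) an ankyrin-repeat protein that is a known YAP and TEAD target, and Acta2 (chr19:34255324-34255623, minus strand) smooth muscle alpha-actin. These 3 had a start-site peak in MEF only.
Col6a1: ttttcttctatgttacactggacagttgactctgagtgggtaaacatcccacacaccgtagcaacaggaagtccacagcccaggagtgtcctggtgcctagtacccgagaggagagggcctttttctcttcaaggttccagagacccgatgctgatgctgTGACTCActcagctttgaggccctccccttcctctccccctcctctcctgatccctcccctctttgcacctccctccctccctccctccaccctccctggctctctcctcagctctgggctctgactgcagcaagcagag
Ankrd1: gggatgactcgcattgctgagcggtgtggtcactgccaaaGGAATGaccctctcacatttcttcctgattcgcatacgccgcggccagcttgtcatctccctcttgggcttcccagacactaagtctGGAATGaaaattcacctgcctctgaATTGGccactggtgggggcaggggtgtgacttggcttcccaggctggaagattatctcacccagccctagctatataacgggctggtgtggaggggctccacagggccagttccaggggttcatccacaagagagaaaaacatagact
Acta2: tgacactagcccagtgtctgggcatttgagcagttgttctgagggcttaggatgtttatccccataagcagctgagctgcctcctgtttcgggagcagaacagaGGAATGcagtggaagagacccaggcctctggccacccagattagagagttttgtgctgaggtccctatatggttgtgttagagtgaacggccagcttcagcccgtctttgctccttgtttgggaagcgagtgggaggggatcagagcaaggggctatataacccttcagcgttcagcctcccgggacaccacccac
Col6a1 held an AP-1 match 90 bases before its start. Ankrd1 held TEAD matches at 210 and 123 and an NFY match at 98, and Acta2 a TEAD match at 146. These are chosen examples. AP-1 letters were present in 15.0% and TEAD letters in 19.3% of all MEF-only promoters. The MEF-only promoters of Col6a3, S100a4 and Jund, for instance, held no match to the 10 motifs.

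Most joined peaks were listed in only 1 of the cell types. The ESC-only share was 61.8% of ESC joined peaks (61.5 to 62.2) and the MEF-only share was 65.3% of MEF joined peaks (64.9 to 65.6). These shares are fixed by the joining and overlap rule. The shared stretches covered 26.1 Mb, which was 39.3% of the 66.5 Mb under ESC peaks and 35.4% of the 73.8 Mb under MEF peaks, with a Jaccard index of 0.229. Few peaks lay near the limit of the rule. Shared peaks with under 100 bp of overlap numbered 489 in ESC and 578 in MEF, with median heights of 25 and 26. Unshared peaks within 100 bp of a peak of the other list numbered 561 in ESC and 693 in MEF, with median heights of 27 and 26. The median distance from an unshared peak to the nearest peak of the other list was 12.1 kb for ESC and 10.2 kb for MEF.

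Unshared peaks were lower and narrower than shared ones. The median height was 38 for ESC-only peaks and 39 for MEF-only peaks, against 63 for shared peaks in both lists. Median widths were 740 and 750 bp for the unshared peaks, against 1020 and 1050 bp for the shared ones. Peaks joined from 2 or more parts made up 41.2% of ESC-only and 58.8% of shared ESC peaks. In MEF they made up 50.5% and 68.5%. A wider peak reaches a 1 bp overlap more easily, and the part of the rule in these differences was not tested. When each list was divided into 10 groups by height, 75.2% (74.2 to 76.1) of the lowest ESC group, with heights of 5 to 24, was in ESC only, and 20.4% (19.4 to 21.3) of the tallest group, with heights of at least 126. The lowest MEF group had 78.7% (77.8 to 79.5) in MEF only and the tallest 20.5% (19.6 to 21.4). How many low peaks a list holds depends on depth and on the calling threshold, neither of which is known here, and their part in these shares was not tested.

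**Figure D1:**
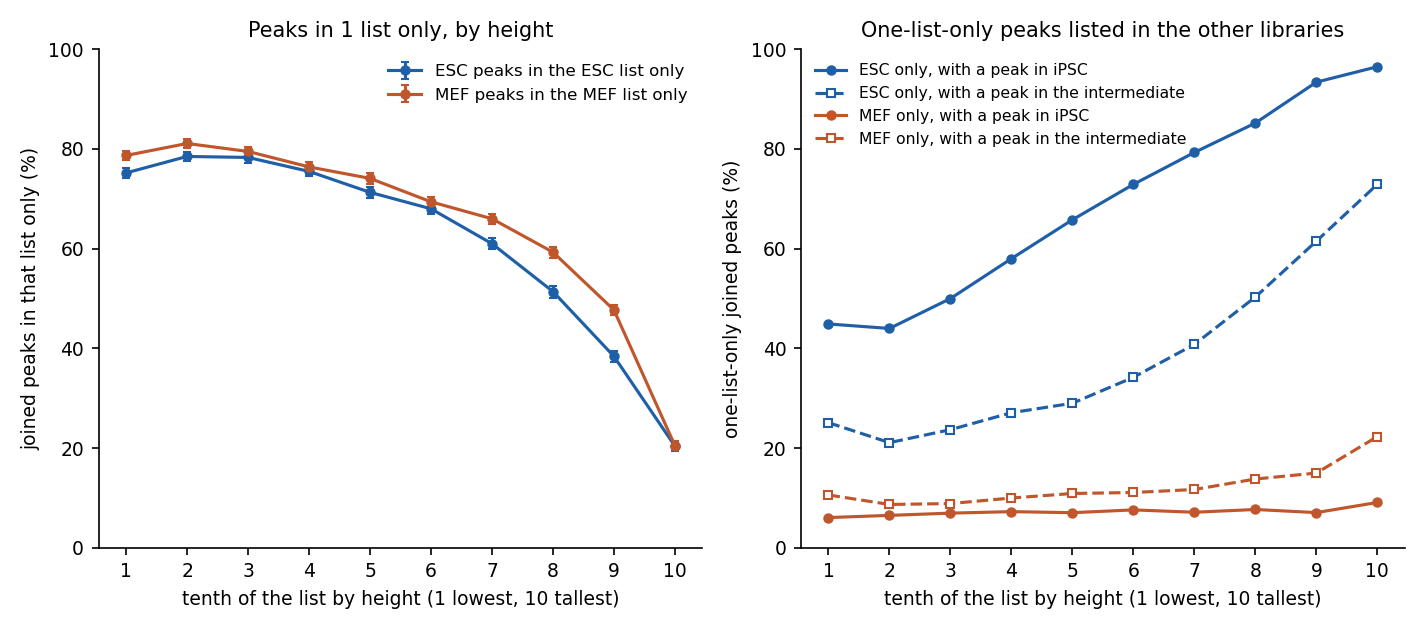
Left, percent of joined peaks in 1 list only (y axis) by height group, from 1 (lowest) to 10 (tallest) in that list (x axis) for ESC and MEF, with Wilson 95% intervals; the share is 75.2% in the lowest ESC group and 20.4% in the tallest. Right, percent of those one-list-only peaks that also had a peak in iPSC (filled circles) or in the intermediate (open squares); ESC-only peaks reach 96.5% in iPSC in the tallest group, and MEF-only peaks 9.10%.

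The iPSC and intermediate lists, which played no part in choosing the peaks, held many ESC-only peaks and few MEF-only peaks. Of the ESC-only peaks 64.1% (63.7 to 64.6) overlapped an iPSC peak, 33.6% (33.2 to 34.1) an intermediate peak and 26.2% (25.8 to 26.7) neither. For MEF-only peaks the shares were 7.07% (6.85 to 7.29) in iPSC, 11.2% (11.0 to 11.5) in the intermediate and 83.8% (83.5 to 84.2) in neither. Shared peaks were found in iPSC in 82.1% of ESC and 82.2% of MEF cases, and in the intermediate in 75.6% and 75.7%. Among ESC-only peaks the share also listed in iPSC was 44.9% in the lowest of the 10 height groups and 96.5% in the tallest, and in the intermediate it was 25.1% and 72.9%. Among MEF-only peaks it was 6.07% and 9.10% in iPSC, and 10.6% and 22.3% in the intermediate. The tallest height group is a broad class, and 6 of the 10 single tallest ESC-only peaks had no iPSC peak.

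Unshared peaks lay away from gene starts. Of ESC-only peaks 5.53% lay within 1 kb of a protein-coding gene start, or of either end where no start site is listed, and of MEF-only peaks 3.74%, against 47.3% and 47.4% of shared peaks. Seen from the other side, 15.9% (15.3 to 16.5) of the ESC peaks near such sites were in ESC only, and 74.4% (74.0 to 74.7) of those farther away. In MEF the shares were 12.9% (12.4 to 13.5) and 77.5% (77.2 to 77.8). MEF-only peaks lay inside a gene body more often than ESC-only peaks, at 53.5% against 43.9%. ESC-only peaks lay beyond 100 kb of any protein-coding gene more often, with 8549 of 44668 peaks against 6975 of 51462. Across chromosomes the ratio of MEF-only to ESC-only peaks was 1.15 in all and ran from 1.02 on chromosome 10 to 1.29 on chromosomes 11 and 15.

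At gene starts the lists agreed for most genes. Both lists had a peak within 1 kb at 12684 of 20665 protein-coding genes (61.4%), while 1374 genes had one in ESC only, 771 in MEF only and 5836 in neither. A gene counts as both when each list has a peak in its windows, even where those peaks do not overlap. The background share of genes called is thus 6.65% (6.32 to 7.00) for ESC only and 3.73% (3.48 to 4.00) for MEF only. Median heights were 48.0 at the ESC-only genes and 41.0 at the MEF-only genes, against 112 and 111 in ESC and MEF at genes with a peak in both. The ESC-only genes had a peak in iPSC in 76.3% of cases (74.0 to 78.4) and in the intermediate in 48.5% (45.8 to 51.1). The MEF-only genes had one in iPSC in 18.9% (16.3 to 21.9) and in the intermediate in 24.1% (21.2 to 27.3).

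Promoters were classed more narrowly and differed in their sequence. For 16457 genes with a RefSeq promoter sequence, the 300 bases at the outermost start site were classed by joined peaks overlapping them. This gave 1077 promoters in ESC only and 466 in MEF only, against 1022 and 536 of the same genes by the 1 kb window. Some genes thus change class, such as Epcam, with a peak in both lists by window and in ESC only by promoter. The median ratio of observed to expected CpG was 0.597 over all promoters. It was 0.792 with a peak in both lists, 0.533 in ESC only, 0.249 in MEF only and 0.162 in neither. A ratio of at least 0.6 was found in 41.5% of ESC-only promoters (38.6 to 44.5) and in 10.3% of MEF-only promoters (7.86 to 13.4), against 49.8% of all. AP-1 letters were present in 15.0% of the 466 MEF-only promoters (12.1 to 18.6), in 4.18% of the 1077 ESC-only promoters (3.14 to 5.55) and in 4.59% of all. Among promoters with a CpG ratio under 0.6, the AP-1 shares were 15.8% for MEF-only (12.6 to 19.6), 5.40% for ESC-only (3.89 to 7.45) and 6.80% for all such promoters. TEAD letters were present in 19.3% of MEF-only promoters (16.0 to 23.1), 13.6% of ESC-only promoters (11.7 to 15.8) and 13.2% of all. RUNX letters were present in 9.44% (7.11 to 12.4), 4.27% (3.22 to 5.65) and 4.91%. In the low-CpG promoters the TEAD interval of MEF-only promoters (17.0 to 24.7) overlapped that of ESC-only promoters (14.3 to 20.1). The RUNX intervals of these classes, 7.94 to 13.8 and 3.75 to 7.26, did not overlap. Over all low-CpG promoters the shares were 16.4% for TEAD and 7.13% for RUNX. Low-CpG promoters with a peak in neither list held RUNX letters in 8.16% (7.45 to 8.93), a share inside the MEF-only interval. They held TEAD letters in 16.3% (15.3 to 17.3). The octamer was present in 2.69% of ESC-only promoters (1.88 to 3.84), 1.72% of MEF-only promoters (0.872 to 3.35) and 1.74% of all, with overlapping intervals. KLF letters were present in 4.09% and 3.86%, against 3.70% of all. The E-box was present in 9.01% of ESC-only and 4.94% of MEF-only promoters, against 7.97% of all. Among promoters with a CpG ratio under 0.6 the E-box intervals of the 2 classes, 4.43 to 8.17 and 2.37 to 6.13, overlapped. NFY letters were present in 35.3% of ESC-only promoters (32.5 to 38.2) and 29.6% of MEF-only promoters (25.6 to 33.9), with overlapping intervals, against 39.1% of all.

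**Figure D2:**
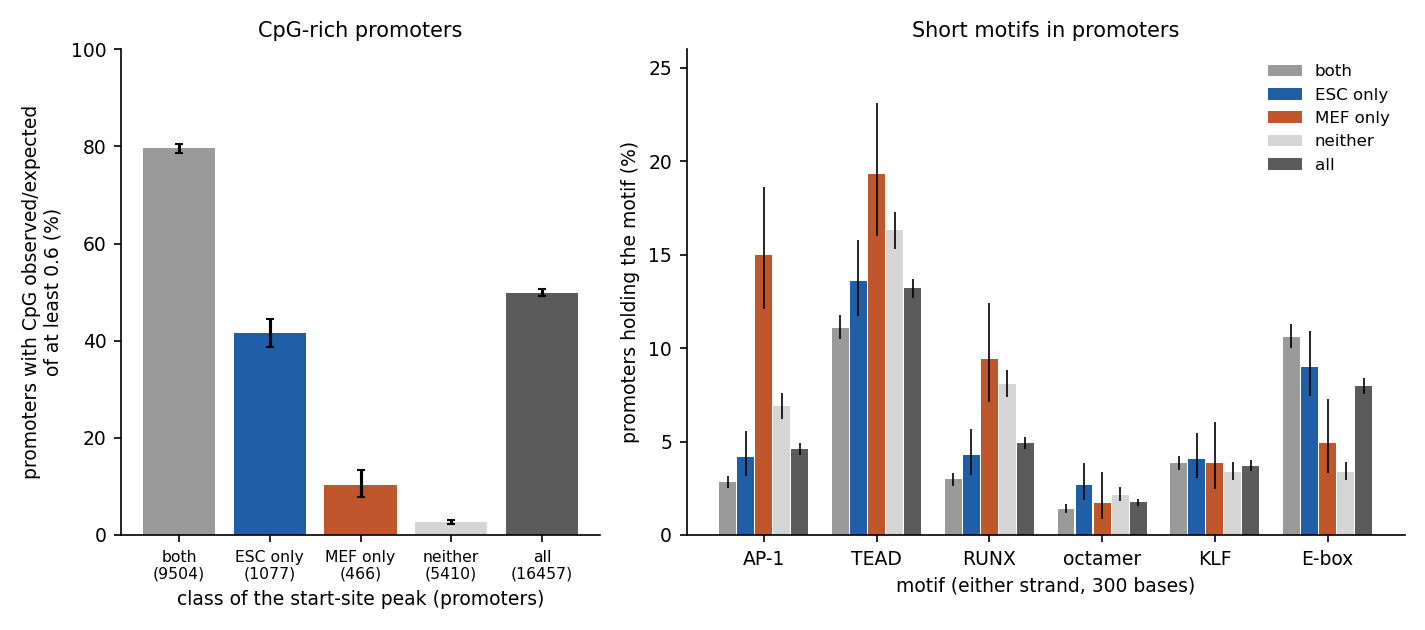
Left, percent of promoters with a ratio of observed to expected CpG of at least 0.6, classed by the lists with a joined peak overlapping the promoter itself (bars with Wilson 95% intervals, number of promoters in parentheses), 41.5% for ESC only and 10.3% for MEF only. Right, percent of promoters of 300 bases holding each of 6 motifs on either strand, by the same classes; AP-1 letters stand at 15.0% for MEF only and 4.18% for ESC only.

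Defining markers were checked first at gene starts and ends. All 9 fibroblast markers chosen (Col1a1, Col1a2, Col3a1, Thy1, Pdgfra, Pdgfrb, Twist2, Prrx1 and Postn) had a MEF peak, with heights from 30 at Pdgfra to 168 at Col1a1. Of the 9 pluripotency markers, 8 had an ESC peak and 2 had a MEF peak. The ESC list also had a peak at 7 of the 9 fibroblast markers, the exceptions being Col3a1 and Postn. Its heights there were 30 to 61, against 30 to 168 in MEF. Whether other cells took part in these ESC peaks was not tested. Pou5f1, which encodes Oct4, was the pluripotency marker with no ESC peak within 1 kb of its start site, while the iPSC list had a peak of height 1330 there.

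Core and naive pluripotency genes had ESC-only start or end peaks more often than genes in general. Of 38 such genes on these chromosomes, 15 had a peak in ESC only, 0 in MEF only, 19 in both and 4 in neither, beside backgrounds of 6.65% and 3.73%. ESC heights at the 15 ran from 41 to 219, with a median of 111. Zfp42 had heights of 0 in MEF and 219 in ESC, with 140 and 400 in the intermediate and iPSC, in a joined peak from 43306751 to 43307650 on chromosome 8. L1td1, an RNA-binding protein gene of the pluripotent state, had heights of 0 in MEF and 206 in ESC, with 200 and 239 in the intermediate and iPSC. At Nanog the heights were 0 in MEF and 105 in ESC, with 65 and 152 in the intermediate and iPSC, in a joined ESC peak from 122706331 to 122707930 on chromosome 6. Zfp42 and L1td1 ranked at the 97.8th and 97.2nd percentiles of ESC peak heights and Nanog at the 86.0th.

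Among ligands and receptors of the list, Tdgf1, a co-receptor for Nodal, had heights of 0 in MEF and 136 in ESC, with 80 and 88 in the intermediate and iPSC. Fgf4, the growth factor that primes ESC for differentiation, had 0 in MEF and 111 in ESC, with 65 and 137 in the intermediate and iPSC. Nodal itself had 0 in MEF and 122 in ESC, with 49 and 0 in the intermediate and iPSC, although its ESC peak overlapped an iPSC peak of 54 that lay outside the window. Gdf3, another ligand of that family, had 0 in MEF and 73 in ESC, with 202 and 106 in the intermediate and iPSC. The MEF library had no start peak at any of these genes, while the other 3 libraries varied in order. Among regulators of transcription and RNA, Sall4, a zinc-finger factor, had 138 in ESC, the orphan receptor gene Nr5a2 had 125, the F-box gene Fbxo15 had 126 and Lin28a, which blocks let-7 maturation, had 108. All 4 had a peak in the intermediate, between 86 and 184 high. The Dppa genes were different in the intermediate. Dppa5a had heights of 0 in MEF and 111 in ESC, with 0 and 155 in the intermediate and iPSC, Dppa2 had 0 in MEF and 67 in ESC, with 0 and 54 in the intermediate and iPSC, and Dppa4 had 0 in MEF and 58 in ESC, with 0 and 51 in the intermediate and iPSC. Dppa3, a maternal factor that shields methylation, had a listed peak of 41 in ESC and none in the other 3 libraries. In total 13 of the 15 genes had a start or end peak in iPSC and 11 in the intermediate, beside 76.3% and 48.5% of all genes in ESC only.

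**Figure D3:**
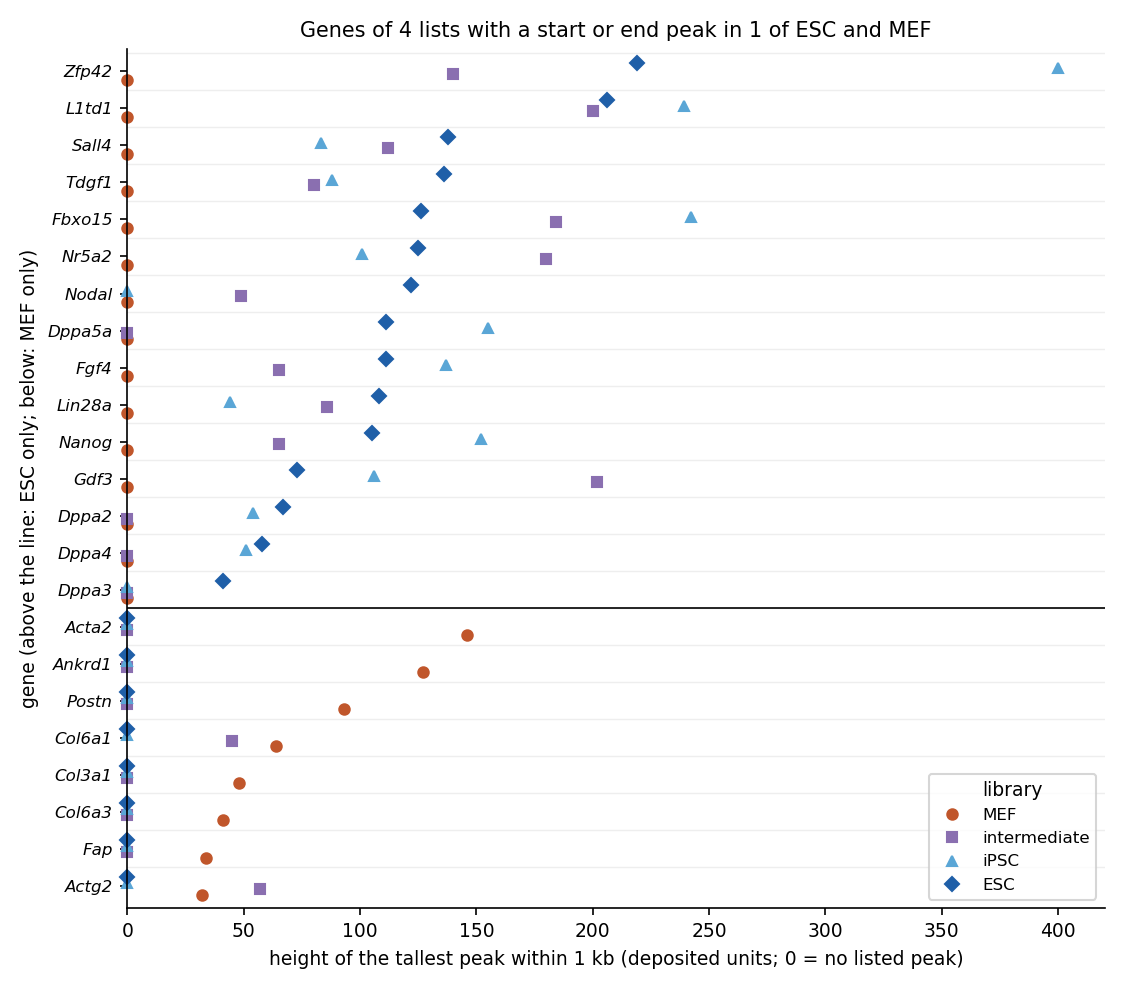
Height of the tallest joined peak within 1 kb of the gene start, or of either end where no start site is listed (x axis, deposited units, 0 for no listed peak), in 4 libraries for pluripotency genes in ESC only (above the line) and for fibroblast, smooth muscle and TEAD-target genes in MEF only (below the line). Zfp42 stands at 219 in ESC and 400 in iPSC, and Acta2 at 146 in MEF and 0 in the other libraries.

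The 19 pluripotency genes with a peak in both lists included Sox2, Klf4, Klf5 and Esrrb. Sox2 had heights of 71 in MEF and 135 in ESC, with 108 and 173 in the intermediate and iPSC. Klf4 had 141 in MEF and 197 in ESC, with 150 and 222 in the intermediate and iPSC, and Klf5 had 243 in MEF and 294 in ESC, with 374 and 550 in the intermediate and iPSC. Esrrb, an orphan receptor of the naive network, had low peaks of 35 in MEF, 66 in iPSC and 30 in ESC and none in the intermediate. Tbx3 ranked higher in MEF, at the 98.3rd percentile of MEF heights against the 96.1st of ESC heights, and Zscan10 too, with heights of 249 in MEF and 95 in ESC, though its MEF and ESC peaks lay side by side without overlap. Of the 19, 13 ranked higher in ESC and 6 in MEF, and the median difference of ranks was 1.30 percentile points, beside -0.0855 over the 12684 genes with a peak in both. The 4 genes with no peak in either list were Pou5f1, Prdm14, Lin28b and Tcl1.

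Most ESC peaks near these genes were in ESC only. Of 277 ESC joined peaks assigned to the 38 genes, each peak going to the nearest protein-coding gene within 100 kb, 222 were in ESC only, which is 80.1% (75.0 to 84.4). Over all genes the share was 57.6%. Of 120 MEF joined peaks assigned to them 67 were in MEF only, 55.8% (46.9 to 64.4), beside 62.7% over all genes. ESC-only peaks outnumbered MEF-only peaks at 32 of the 38 genes, beside 31.1% of all genes. Sox2 had 12 ESC-only peaks among 13 and Esrrb 12 among 16. Prdm14, a repressor of differentiation genes, had 11 among 12 although its start site had no ESC peak. Tet2, which oxidises methylated cytosine, had 14 among 18, and Jarid2, a partner of Polycomb complex PRC2, had 15 among 18. Of the 222 ESC-only peaks 157 were also listed in iPSC (70.7%, beside 64.1% over all ESC-only peaks) and 95 in the intermediate (42.8%, beside 33.6%). The tallest ESC-only peaks of the list lay at Zfp42 and L1td1, then 10.9 kb from Klf5 with a height of 193 and 2.11 kb from Klf2 with 169. Downstream of Klf4, 62.3 kb from the gene body, a peak of 145 in ESC and 110 in iPSC had no counterpart in MEF or the intermediate.

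Epithelial genes showed the same direction at their starts. Of 25 genes 15 had a start or end peak in ESC only, 10 in both and 0 in MEF only or in neither, beside 6.65% of all genes in ESC only and 3.73% in MEF only. Cdh1, which encodes E-cadherin, had heights of 0 in MEF and 157 in ESC, with 224 and 90 in the intermediate and iPSC. Esrp1, an epithelial splicing factor, had 0 in MEF and 148 in ESC, with 179 and 227 in the intermediate and iPSC, and Crb3, a polarity protein gene, had 0 in MEF and 132 in ESC, with 130 and 126 in the intermediate and iPSC. The other ESC-only genes were tight-junction genes (Ocln, Cldn4, Cldn6, Cldn7, Marveld2 and Marveld3), the factors Grhl2 and Ovol1, and Rab25, Dsp, Krt18 and Spint1, with ESC heights from 27 to 91. Of the 15, 13 had a peak in iPSC and 14 in the intermediate, beside 76.3% and 48.5% of all genes in ESC only. Among the 10 genes with a peak in both lists, 9 ranked higher in ESC, with a median difference of 52.6 percentile points. Epcam, an epithelial adhesion molecule gene, had heights of 36 in MEF and 138 in ESC, with 156 and 99 in the intermediate and iPSC. Tjp3 was the exception in rank, at 254 in MEF and 207 in ESC, with 214 and 108 in the intermediate and iPSC. Near the list 91 of 125 ESC peaks were in ESC only, 72.8% (64.4 to 79.8), beside 57.6% over all genes. In MEF only were 44 of 77 MEF peaks, 57.1% (46.0 to 67.6), an interval that holds the 62.7% over all genes. Of the 91 ESC-only peaks 54 were listed in the intermediate (59.3%) and 50 in iPSC (54.9%), beside 33.6% and 64.1% over all ESC-only peaks.

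MicroRNA loci also differed between the lists. Of 919 hairpins on these chromosomes, 11.0% had a peak within 5 kb in ESC only and 16.5% in MEF only. Of 20 hairpins of pluripotent or epithelial miRNAs 15 had one in ESC only, 5 in both and 0 in MEF only, but these hairpins come from few loci and neighbours share their peaks. Chosen mature forms from the loci in ESC only are shown from RefSeq (GRCm38.p6), with the seed (bases 2 to 8) in capitals. All but miR-200a-3p were picked for shared seeds.
miR-294-3p: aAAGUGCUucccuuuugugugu
miR-295-3p: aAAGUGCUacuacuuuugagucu
miR-302b-3p: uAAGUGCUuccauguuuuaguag
miR-302d-3p: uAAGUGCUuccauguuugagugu
miR-200b-3p: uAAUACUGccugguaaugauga
miR-200c-3p: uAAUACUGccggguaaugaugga
miR-429-3p: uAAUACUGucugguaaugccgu
miR-200a-3p: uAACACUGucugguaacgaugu
The first 4 were picked for the seed AAGUGCU, and miR-200b, miR-200c and miR-429 share AAUACUG. Other forms of the same clusters have other seeds, such as AAGUGCC in miR-290a-3p, AAGUGCA in miR-291b-3p and AGUGCUU in miR-302c-3p. The miR-290 cluster on chromosome 7, the main miRNA cluster of mouse ESC, had heights of 0 in MEF and 158 in ESC, with 130 to 137 in the intermediate and 193 in iPSC. The miR-302 and miR-367 cluster on chromosome 3 had 0 in MEF and 122 in ESC, with 45 and 54 in the intermediate and iPSC. At Mir200a and Mir200b on chromosome 4, which target Zeb factors and keep the epithelial state, heights were 0 in MEF and 102 in ESC, with 221 and 89 in the intermediate and iPSC, and Mir429 beside them had none in iPSC within its window. Mir200c had 0 in MEF and 30 in ESC, with 52 and 39 in the intermediate and iPSC, while Mir141, its neighbour in the same cluster on chromosome 6, had 186 in MEF and 30 in ESC, with 203 and 39 in the intermediate and iPSC, with a MEF peak inside its window that the window of Mir200c did not reach. Of 23 fibroblast and mesenchymal hairpins 6 had a peak in MEF only, 15 in both and 2 in neither, beside 16.5% of all hairpins in MEF only. The 6 also come from few loci, and neighbours can share a peak. Chosen mature forms from the MEF-only loci are shown with the seed in capitals.
miR-29a-3p: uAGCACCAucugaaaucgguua
miR-29b-3p: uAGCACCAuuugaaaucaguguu
miR-199a-3p: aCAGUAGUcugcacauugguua
miR-214-3p: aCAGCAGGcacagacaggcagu
miR-196a-5p: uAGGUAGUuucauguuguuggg
MiR-29a and miR-29b share the seed AGCACCA and are known to target collagen mRNAs. Their hairpins on chromosome 6, Mir29a and Mir29b-1, had a height of 58 in MEF and no peak in the other 3 libraries, while the second copy, Mir29b-2 on chromosome 1, had a peak in all 4. Mir199a-2 had heights of 148 in MEF and 0 in ESC, with 0 and 53 in the intermediate and iPSC, while its second copy Mir199a-1 had peaks of 96 in MEF and 28 in ESC. Mir214 had 116 in MEF and 0 in ESC, with 0 and 32 in the intermediate and iPSC. Mir196a-1 and Mir196a-2, within Hox clusters, had 70 and 37 in MEF alone. All 9 hairpins of the growth-related clusters of miR-17 and miR-106b had a peak in both lists.

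Germline genes had ESC-only start peaks that the intermediate mostly lacked. Of 15 genes, many of which are known to be silenced by DNA methylation in somatic cells, 7 had a peak in ESC only, 4 in both, 4 in neither and 0 in MEF only, beside 6.65% of all genes in ESC only and 3.73% in MEF only. Mael, a piRNA pathway gene, had heights of 0 in MEF and 83 in ESC, with 0 and 114 in the intermediate and iPSC. Sycp3 had 0 in MEF and 45 in ESC, with 0 and 151 in the intermediate and iPSC, and Ddx4, the germ-cell RNA helicase gene, had 0 in MEF and 45 in ESC, with 0 and 104 in the intermediate and iPSC. Tex19.1, which is expressed in both germ cells and ESC, had 0 in MEF and 49 in ESC, with 54 and 65 in the intermediate and iPSC. It was the 1 gene of the 7 with a peak in the intermediate, beside 48.5% of all genes in ESC only. Sycp1 and Hormad1, of the meiotic chromosome axis and synapsis, had 44 and 30 in ESC alone, and Tdrd1 had 27 in ESC and 33 in iPSC. The genes with a peak in both lists were Dazl, Prdm1, Stra8 and Tdrkh. Near the list 29 of 35 ESC peaks were in ESC only, 82.9% (67.3 to 91.9), beside 57.6% over all genes. In MEF only were 17 of 23 MEF peaks, 73.9% (53.5 to 87.5), an interval that holds 62.7%.

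Both lists had a start or end peak at 16 of 23 neural, 9 of 17 mesoderm and endoderm and 7 of 11 trophoblast genes. Over all genes the share was 61.4%. Most neural and trophoblast genes had more ESC-only than MEF-only peaks around them. Of 23 neural genes 16 had a peak in both lists, 5 in ESC only (Sox1, Pax6, Olig2, Hes5 and Neurog1), 1 in MEF only (Six3) and 1 in neither (Gfap), beside 6.65% of all genes in ESC only and 3.73% in MEF only. Sox1, a neuroectoderm factor, had heights of 0 in MEF and 124 in ESC, with 58 and 102 in the intermediate and iPSC, and Olig2, an oligodendrocyte and motor neuron factor, had 0 in MEF and 127 in ESC, with 39 and 95 in the intermediate and iPSC. Of 147 ESC peaks near these genes 61.2% (53.2 to 68.7) were in ESC only, with the share of all genes, 57.6%, inside the interval, and of 103 MEF peaks 44.7% (35.4 to 54.3) were in MEF only, below 62.7%. These were 90 ESC-only and 46 MEF-only peaks. ESC-only peaks were the more numerous at 17 of the 23 neural genes and MEF-only peaks at 5, beside 31.1% and 35.2% of all genes. Of 17 mesoderm and endoderm genes, Mixl1, Sox17 and Foxa2 had a peak in ESC only and Gata4 in MEF only, with 9 in both and 4 in neither. Sox17, an endoderm factor, had heights of 0 in MEF and 89 in ESC, with 0 and 380 in the intermediate and iPSC. Of 11 trophoblast genes, Cdx2 and Tfap2c had a peak in ESC only and Elf5 in MEF only. ESC-only peaks were the more numerous at 7 of the 11 and MEF-only peaks at 3, beside 31.1% and 35.2% of all genes. The intervals of their shares of peaks, 51.0 to 72.8 in ESC only and 36.9 to 63.1 in MEF only, held those of all genes. Of 11 formative and primed pluripotency genes, 9 had a peak in both lists, T had one in ESC only, with a height of 33, and Cer1 in neither.

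Fibroblast and mesenchymal genes mostly had start or end peaks in both lists and many MEF-only peaks around them. Of 42 genes 31 had a start or end peak in both lists, 5 in MEF only, 2 in ESC only (Meox2 and Bnc1) and 4 in neither, beside the background of 3.73% in MEF only and 6.65% in ESC only. In a window of 2.5 kb 4 genes were in MEF only and 4 in ESC only. The 5 were matrix genes or genes of matrix remodelling. Postn, which encodes periostin, had a MEF height of 93, Col3a1, the collagen III gene, 48, Col6a3, a collagen VI gene, 41, and Fap, a protease of activated fibroblasts, 34, all with no peak in the other 3 libraries. Col6a1 had heights of 64 in MEF, 45 in the intermediate and 0 in iPSC and ESC, in a joined peak from 76724871 to 76726570 on chromosome 10. Among the 31 genes with a peak in both lists 21 ranked higher in MEF and 10 in ESC, with a median difference of -19.7 percentile points (ESC minus MEF), beside -0.0855 over all genes. Col1a1, the main collagen I chain gene, had heights of 168 in MEF and 51 in ESC, with 138 and 0 in the intermediate and iPSC. Lox, which cross-links collagen, had 178 in MEF and 38 in ESC, with 46 and 69 in the intermediate and iPSC, and S100a4 had 158 in MEF and 30 in ESC, with 114 and 0 in the intermediate and iPSC. Genes of the mesenchymal transition did not all follow, since Snai2 had 106 in MEF and 117 in ESC, Zeb1 37 and 89, Zeb2 76 and 114, and Fn1 155 and 178. At Zeb2 the tallest peaks of the lists lay at different positions.

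Near the 42 fibroblast genes 289 of 368 MEF joined peaks were in MEF only, 78.5% (74.1 to 82.4), above the 62.7% over all genes. The ESC-only share there was 120 of 204, or 58.8% (52.0 to 65.4), an interval that holds the 57.6% over all genes. MEF-only peaks outnumbered ESC-only peaks at 32 of the 42 genes, beside 35.2% of all genes. Col5a1, a collagen V gene, had 24 MEF-only and 0 ESC-only peaks, Col6a3 had 19 and 0, and Fbn1, the fibrillin gene, had 15 and 3. Thy1, a fibroblast surface marker, had 11 and 0, and Twist2, a mesenchymal bHLH factor, had 10 and 1. Zeb2 had 12 and 11 and Cdh2 9 and 10, so these genes had many peaks of both kinds. The tallest MEF-only peaks near the list were 231 high in the gene of the matrix protease Mmp2, 199 high at 35.0 kb from Tgfb2, and 189 high in Twist2. Of the 289 MEF-only peaks 20 were listed in iPSC (6.92%) and 21 in the intermediate (7.27%), beside 7.07% and 11.2% over all MEF-only peaks.

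Smooth muscle and contractile genes stood higher by rank in MEF at their starts. Of 13 genes 11 had a start or end peak in both lists and 2, Acta2 and Actg2, in MEF only, beside 3.73% of all genes. Acta2 had heights of 146 in MEF and 0 in the intermediate, iPSC and ESC, in a joined peak from 34253931 to 34256210 on chromosome 19. Of the 11 shared genes 10 ranked higher in MEF, the exception being Myh11, with a median difference of -37.1 percentile points. Tagln, an actin-binding marker of smooth muscle, had heights of 159 in MEF, 0 in the intermediate and iPSC and 41 in ESC, and Cnn2, a calponin gene, had 229 in MEF and 42 in ESC, with 40 and 0 in the intermediate and iPSC. Tpm1, a tropomyosin gene, had 186 in MEF and 42 in ESC, with 47 and 30 in the intermediate and iPSC. Nearby it had 19 MEF-only and 0 ESC-only peaks. Near the list 71 of 95 MEF peaks were in MEF only, 74.7% (65.2 to 82.4), beside 62.7% over all genes, and 13 of 40 ESC peaks in ESC only, 32.5% (20.1 to 48.0), below the 57.6% over all genes. Myh9 and Cald1, of the contractile apparatus of non-muscle cells, had 19 and 17 MEF-only peaks.

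AP-1 and TEAD genes and their targets had start or end peaks in both cell types, and few ESC-only peaks around them. Of 21 genes 20 had a peak in both lists and 1, Ankrd1, in MEF only, beside 3.73% of all genes, with heights of 127 in MEF and 0 elsewhere. Jun had heights of 363 in MEF and 266 in ESC, with 313 and 564 in the intermediate and iPSC. Fosl2, an AP-1 subunit gene, had 325 in MEF and 111 in ESC, with 218 and 141 in the intermediate and iPSC, whereas Fosl1 had 49 in MEF and 119 in ESC, with 76 and 41 in the intermediate and iPSC and its ESC and MEF peaks at different positions. The YAP targets Ccn1 and Ccn2 had 139 and 128 in MEF and 155 and 157 in ESC. Over the 20 genes 12 ranked higher in MEF and 8 in ESC, with a median difference of -0.800 percentile points. MEF-only peaks outnumbered ESC-only peaks at 16 of the 21 genes, beside 35.2% of all genes, with 14 and 2 at Amotl2, 10 and 2 at Jun and 7 and 1 at Fosl2. The MEF-only share of 180 MEF peaks was 56.7% (49.4 to 63.7), an interval that holds the 62.7% over all genes. The ESC-only share of 124 ESC peaks was 33.1% (25.4 to 41.7), below 57.6%. Of the 102 MEF-only peaks 27 were listed in the intermediate, 26.5%, beside 11.2% over all MEF-only peaks.

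In the TGF-beta and BMP pathway, which drives matrix production in fibroblasts, 29 of 30 genes had a start or end peak in both lists. The other 1 had a peak in MEF only, with a height of 128. Over all genes 61.4% had a peak in both lists and 3.73% in MEF only. Near the 30 genes 197 of 277 MEF peaks were in MEF only, 71.1% (65.5 to 76.1), beside 62.7% over all genes. In ESC only were 87 of 173 ESC peaks, 50.3% (42.9 to 57.7), an interval that holds 57.6%. Among signal transducers Smad3 had 24 MEF-only and 0 ESC-only peaks, and its start-site heights were 167 in MEF and 93 in ESC, with 71 and 43 in the intermediate and iPSC. The inhibitors Smad6 and Smad7 had 12 and 13 MEF-only peaks against 4 each in ESC. Among receptors Tgfbr2 had 8 MEF-only and 4 ESC-only peaks and heights of 143 in MEF and 48 in ESC, with 110 and 72 in the intermediate and iPSC, and Tgfbr3 had 13 and 3. The ligand Bmp4 ran the other way, with 7 ESC-only and 2 MEF-only peaks, and peaks of 35 in MEF and 72 in ESC at different positions.

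**Figure D4:**
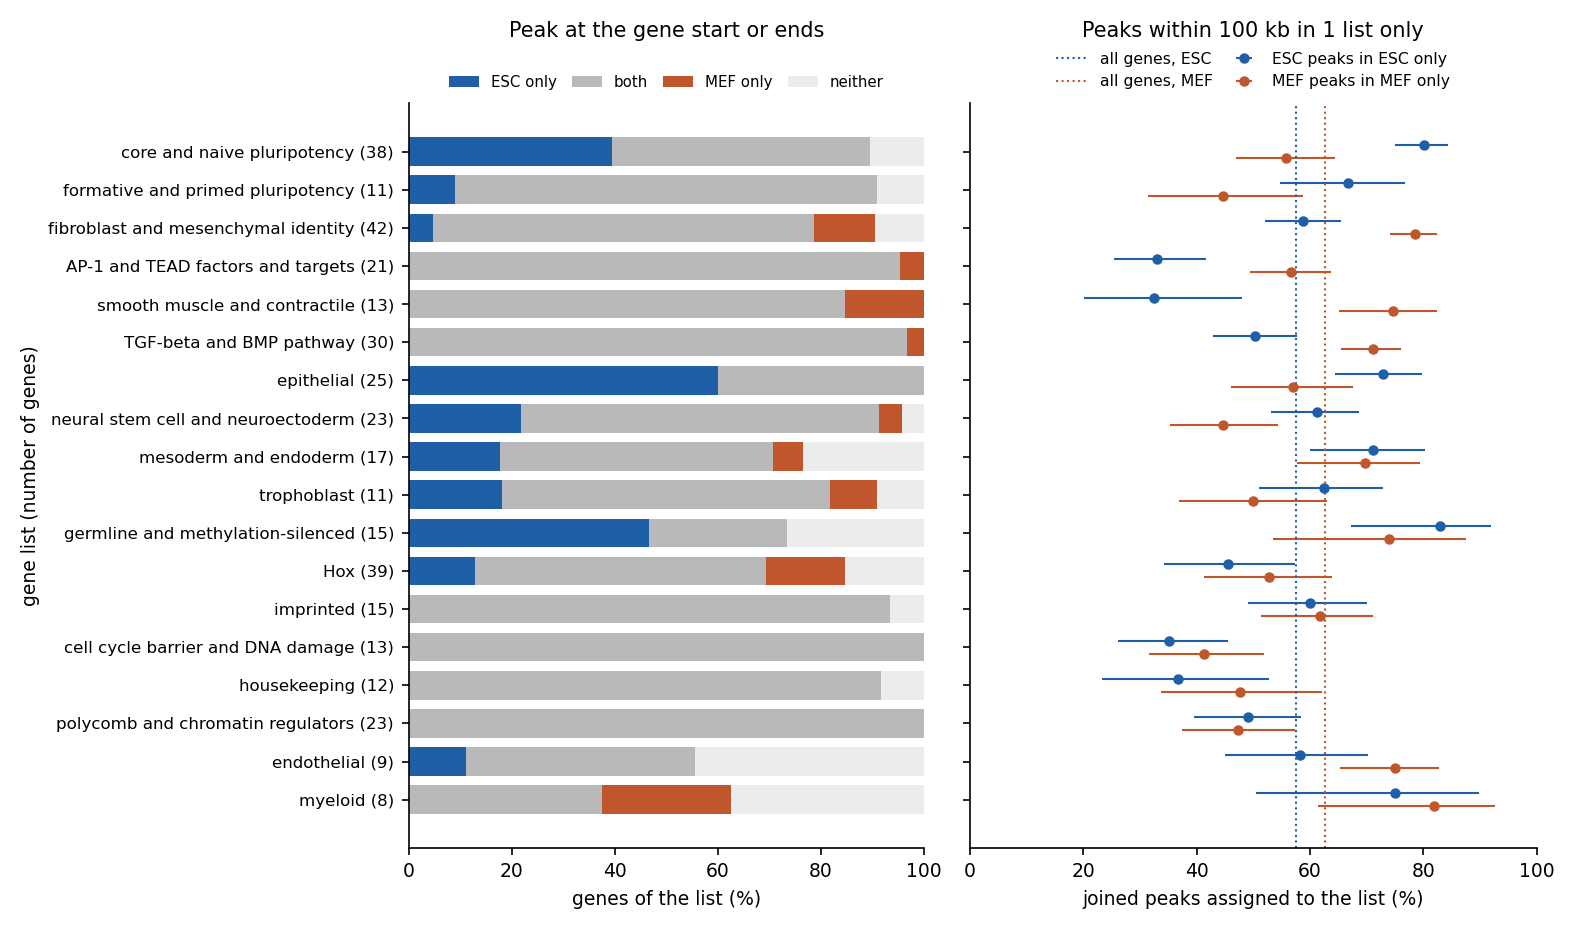
Left, percent of the genes of each list (number in parentheses) with a start or end peak in ESC only, both, MEF only or neither; ESC-only genes make up 15 of 25 in the epithelial list. Right, percent of ESC (blue) and MEF (orange) joined peaks assigned to each list within 100 kb that are in that list only, with Wilson 95% intervals and dotted lines for all genes at 57.6% and 62.7%; pluripotency genes stand at 80.1% for ESC and fibroblast genes at 78.5% for MEF.

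Hox genes were mixed. Of 39 genes 22 had a start or end peak in both lists, 5 in ESC only, 6 in MEF only and 6 in neither, beside 6.65% and 3.73% of all genes in ESC only and MEF only. The order of these counts was not stable, with 6 in ESC only and 5 in MEF only in a window of 2.5 kb and 5 and 4 with both ends of every gene. Heights at the genes in 1 list were 27 to 62. Hoxa9 had heights of 61 in MEF, 37 in the intermediate and 0 in iPSC and ESC, and Hoxd1 had 0 in MEF and 62 in ESC, with 48 and 181 in the intermediate and iPSC. The ESC-only genes were Hoxb8, Hoxc8, Hoxc11, Hoxc12 and Hoxd1, and the MEF-only genes were Hoxa6, Hoxa9, Hoxb6, Hoxc5, Hoxc9 and Hoxd3. Neighbouring Hox genes lie close together and can share peaks. Housekeeping, polycomb and cell cycle genes served as a comparison. Of 12, 23 and 13 genes, 11, 23 and 13 had a peak in both lists and 0 in 1 list only, beside 6.65% and 3.73% of all genes. Imprinted protein-coding genes had a peak in both lists in 14 of 15 cases, and the 1 without was Nnat. The non-coding H19, expressed from the maternal allele, had a height of 102 in MEF and no peak in the other 3 libraries, while Meg3 and Kcnq1ot1 had peaks in both lists. Snrpn had 16 ESC-only and 0 MEF-only peaks nearby, and Igf2r had 20 MEF-only and 0 ESC-only peaks.

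Markers of other cell types were read in the same way. Of 9 endothelial genes 4 had a start or end peak in both lists, 1 in ESC only (Sox18, height 32) and 4 in neither, and these included the defining genes Pecam1, Cdh5 and Vwf. Over all genes 6.65% were in ESC only and 3.73% in MEF only, and with 9 and 8 genes these lists are too short to be read against them. Endothelial MEF heights ran from 35 to 77 at the shared genes. Of 8 myeloid genes 3 had a peak in both lists, 2 in MEF only and 3, Ptprc, Itgam and Adgre1, in neither. The MEF-only myeloid genes were Csf1r, the receptor for the macrophage growth factor CSF1, with a height of 78, and Lyz2, the macrophage lysozyme gene, with 48. Near the endothelial list 69 of 92 MEF peaks were in MEF only, 75.0% (65.3 to 82.7), beside 62.7% over all genes, of which 19 were near Erg and 14 near Kdr. The part of other cell types in the MEF peaks was not tested.

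MEF-only peaks were more clustered than ESC-only peaks. When neighbouring peaks of 1 class were stitched over the distance customary for super-enhancers, 1372 MEF-only stretches held at least 5 peaks and together 17.7% of all MEF-only peaks. The ESC-only peaks formed 545 such stretches with 7.27% of the peaks. Peaks left alone made up 35.2% of MEF-only and 49.3% of ESC-only peaks. The largest MEF-only stretch ran from Rxra, a retinoid receptor gene, to Col5a1 with 33 peaks over 206 kb (chromosome 2, 27734021 to 27939980), of which 1 was listed in iPSC and 3 in the intermediate. Others lay at Zmiz1 with 22 peaks, Tspan9 with 21, and Hdac11 and the matrix gene Fbln2 with 20. ESC-only stretches of 12 peaks lay at Myo10, at Usp7 and at Dppa5a with its neighbours Ooep and Ddx43, which are expressed in germ cells. The stretch at Dppa5a ran from 78364721 to 78396690 on chromosome 9 and held no MEF peak, while all 12 of its peaks were listed in iPSC and 4 in the intermediate. Stretches of 11 ESC-only peaks without a MEF peak inside lay at Zfp42, at Etv5, an ETS factor gene, and around the miR-290 cluster beside Nlrp12. In stretches of at least 5 peaks, 61.7% of ESC-only peaks were listed in iPSC and 43.4% in the intermediate, and of MEF-only peaks 7.51% and 13.9%.

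Many of the genes with the most unshared peaks were long. Pde4d had 43 ESC-only peaks, Magi2 41 and Macrod2 39, over gene lengths of 1302, 1485 and 1998 kb, and Macrod2 had 36 MEF-only peaks too. Dlg2 and Nav2 had 44 MEF-only peaks each, Auts2 and Lpp 42 and Sox5 41. Tns1, which encodes the focal adhesion protein tensin, was shorter, with 35 MEF-only and 7 ESC-only peaks on 214 kb, or 16.3 MEF-only peaks per 100 kb. The most ESC-only peaks per 100 kb among the 10 genes with the most such peaks was 3.55 at Etl4.

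The tallest start or end peaks in 1 list are described by their values. In ESC only, Scg3, a secretogranin gene, had heights of 0 in MEF and 406 in ESC, with 256 and 545 in the intermediate and iPSC, and the zinc-finger gene Zfp345 had 0 in MEF and 311 in ESC, with 85 and 549 in the intermediate and iPSC. Pjvk, an inner-ear gene, had 0 in MEF and 289 in ESC, with 0 and 499 in the intermediate and iPSC. Of the 10 tallest, 5 were predicted genes (Gm40367, Gm40369, Gm40365, Gm40364 and Gm36327) side by side on chromosome 6 from 47652721 to 47682720, with ESC heights of 292 to 393. In MEF only, Pcmtd1 had a peak of 447 at an end, which was 616 in iPSC. Emilin1, an elastic-fibre protein gene, had 168 in MEF at its start site and 0 elsewhere, and Sirpa, the receptor for CD47, had 206. Sirpa and Pcmtd1 have no listed start site, so their peaks can lie at either end of the gene. Among the 12684 genes with a peak in both lists, the rank difference exceeded 50 percentile points in favour of ESC at 301 and in favour of MEF at 88. Olig1, an oligodendrocyte factor, was at the 94.6th percentile in ESC and the 6.85th in MEF. Emp1, a membrane protein gene, was at the 11.6th in ESC and the 93.8th in MEF, with heights of 158 in MEF and 26 in ESC, with 147 and 35 in the intermediate and iPSC. Emp3 had 103 in MEF and 21 in ESC, with 38 and 0 in the intermediate and iPSC.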

How the data were processed

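Per the submitters' processing notes, the tools were MACS 1.4.2-1, Picard, Bowtie2 and CASAVA 1.8.2 and the build was mm10, with no roles stated. Their parameters, the depth and the threshold for calling a peak are not known here. Each library has 1 list deposited by the authors, whose columns give position, summit and height per the file headers. The deposited height is a signal in whole numbers of at least 5, and no scaling to library size is stated. The lists divide open stretches into neighbouring peaks, so joining sets the number of regions.

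Joining, overlaps and assignment used Python 3.11.15 with numpy 2.4.6 and pandas 2.3.3 and were tested on simulated lists with known classes. A joined peak has the height of its tallest part. Gene positions came from RefSeq (GRCm38.p6). A gene was scored in a window of 1 kb around its start site for 16457 genes with a promoter sequence and around both ends for the other 4208. Peaks were assigned to the nearest protein-coding gene within 100 kb. Of 371 list genes 362 lay on chromosomes 1 to 19. The comparison, the gene lists and the genes named were chosen with earlier results of these data known: list members, the 10 genes per direction with the most unshared peaks, the tallest unshared start or end peaks and the largest rank differences, and the 10 largest stretches. The promoters and miRNAs printed were chosen after their values were seen. Alternatives varied the joining, overlap, list length, peak width, chromosomes and windows. A few results at single genes are not reported here.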

Additional observations from a re-analysis of the deposited data

Results flagged for a closer look

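Peaks on the sex chromosomes were left out of the comparison. On chromosome Y the ESC list held 391 peaks, 0.301% of all its peaks, and the MEF list 50, or 0.0318%. On chromosome X the ESC list held 3675 peaks, 2.83%, and the MEF list 2148, 1.37%. The labels do not give the sex of either library.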

How the results depend on the processing

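The ESC-only share of peaks was 59.6% with no joining, 63.3% when overlap had to reach 50% of the shorter peak, 57.9% for the taller 50% of each list, 62.8% for lists of equal length, 59.1% for peaks of 500 bp and 62.2% with the X chromosome. The MEF-only share was 63.6% with no joining, 64.8% with joining up to 150 bp, 66.8% with 50% overlap, 61.7% for the taller 50%, 63.6% for equal length and 62.9% for 500 bp. Genes with a start or end peak in ESC only were 8.81% for the taller 50%, 7.32% for equal length, 7.22% with both ends of every gene and 6.21% for genes with a listed start site; in MEF only they were 3.35% for equal length, 4.46% with a window of 2.5 kb, 4.59% with both ends and 3.26% with a listed start site. The settings on both ends and on listed start sites were added after seeing the data.

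ESC-only peaks in iPSC came to 62.3% with no joining, 64.9% with 150 bp, 62.7% with 50% overlap, 61.9% for the taller 50% and 60.1% for equal length, and in the intermediate to 33.1% with no joining, 32.6% with 50% overlap, 31.4% for the taller 50% and 34.5% for 500 bp. MEF-only peaks in iPSC came to 6.33% with 50% overlap, 5.63% for the taller 50%, 5.92% for equal length and 8.71% for 500 bp, and in the intermediate to 11.9% with no joining, 10.9% with 150 bp, 10.1% with 50% overlap, 9.15% for the taller 50% and 13.5% for 500 bp.

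Counts of list genes with a peak in 1 list stayed within 1.5 times in 36 of 36 cases with no joining, 33 with a window of 2.5 kb and 31 with both ends. Counts of unshared peaks per list stayed so in 25 of 36 cases within 20 kb and in 3 of 36 with no joining, which counts an open stretch several times. The order of ESC-only and MEF-only counts turned for Hox genes (5 and 6) to 6 and 5 at 2.5 kb and 5 and 4 with both ends, for peaks at cell cycle genes (31 and 36) to 21 and 18 within 20 kb, and for peaks at polycomb genes (51 and 44) to 92 and 101 with no joining. The counts became equal for fibroblast genes at 2.5 kb (4 and 4), for trophoblast genes at 2.5 kb (1 and 1) and for peaks at housekeeping genes within 20 kb (11 and 11). With both ends 1 cell cycle gene was in MEF only, and 1 imprinted and 2 polycomb genes in ESC only, where none had been. The motif search in whole joined peaks was not run, since it needs a genome sequence that was not used here. No paired analysis was possible because each group has 1 library. Depth is unknown, so an unlisted peak is no measure of closed chromatin.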

Other observations

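A few unshared peaks had heights far from the rest and are given as values. In Chl1 on chromosome 6 (103648711 to 103649470) the MEF-only peak had a height of 93490, with 58135 in the intermediate and 49401 in iPSC and no listed ESC peak. In Kcnh1 on chromosome 1 a MEF-only peak of 1050 had no counterpart in iPSC or the intermediate. An ESC-only peak of 791 lay 9.18 kb from Nkx2-6, and another of 479 in Lrp1b, both absent from iPSC and the intermediate. A MEF-only peak of 370 lay 5.50 kb from Gdf3, whose start had a peak in ESC only.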
